A study of Mus musculus with 6 samples.

Results

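The immunoglobulin heavy chain genes were followed in RNA of regulatory T cells sorted from mouse bone marrow. Members were the genes whose symbol begins with Ighv and a digit, which are the variable segments, together with the constant genes Ighm, Ighd, Ighg1, Ighg2b, Ighg2c, Ighg3, Igha and Ighe. The rule found 193 of 47643 annotated genes, made up of 185 variable segments and 8 constant genes. All lie on chromosome 12 between positions 113254830 and 116010093 of mouse build mm10 (GRCm38).

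The cells were flow-sorted for CD4 and for GFP reporting FOXP3, the transcription factor of regulatory T cells, and both groups carry this reporter. The myeloma group was 3 bone marrow samples of mice injected with Vk*MYC, numbered replicates 3, 4 and 5. Vk*MYC is a mouse model of multiple myeloma, a cancer of plasma cells, in which a MYC transgene under kappa light chain control is switched on in germinal-centre B cells. The control group was 3 bone marrow samples of control mice, numbered replicates 1, 3 and 5, and no treatment is named for them. The labels name no strain, age, time after injection or number of sorted cells. The series title concerns the type I interferon receptor subunit IFNAR1 and the expansion of regulatory T cells in myeloma, and the libraries set these cells from myeloma marrow against those from control marrow.

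In a B cell, a variable segment is joined to a diversity and a joining segment, and the joined exon is spliced to a constant gene. The constant gene sets the antibody class: Ighm and Ighd give IgM and IgD of naive B cells, and class switching replaces them with an IgG, IgA or IgE gene. Each B cell clone normally uses a single productive variable segment, and plasma cells transcribe their heavy chain gene at very high levels. T cells do not make a productive heavy chain, although unjoined Ighm transcripts have been described in them.

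Each library held between 10240620 and 13314631 expected counts, so the 3 counts taken here as the detection floor equalled 0.218 to 0.298 CPM, the expected counts scaled to a common library total of 1e6. T cell and regulatory T cell markers were present in every library, with sums over 9 genes of 4903, 4841 and 4761 CPM in myeloma replicates 3, 4 and 5, against 5093, 4628 and 4318 CPM in control replicates 1, 3 and 5. These sums overlapped, but single markers differed. Cd3g, a chain of the T cell receptor complex, was called higher in myeloma (log2 fold change 0.37, adjusted p = 0.0416 in edgeR), a call that held in 1 of 6 fits that left out a library, that without myeloma replicate 5. Cd3d and Trac also lay above all control values and Il2ra below them, without passing the test. Markers of other cell types were also present. Summed plasma cell markers outside the immunoglobulin genes (10 genes) were 308, 424 and 588 CPM in the myeloma libraries, against 239, 212 and 181 CPM in the control libraries. Most of each control sum was Prdm1, Xbp1 and Txndc5, at 44.5 to 90.8, 53.3 to 72.1 and 67.9 to 73.6 CPM. These genes stood at 109 to 124, 65.9 to 103 and 76.3 to 106 CPM in the myeloma libraries. Every other gene of this list was at 3.70 CPM or lower in each control library, so the control sums say little about plasma cells. Summed B cell markers (14 genes) were 40.6, 58.9 and 104 CPM in the myeloma libraries, against 65.6, 335 and 412 CPM in the control libraries. Erythroid marker sums (6 genes) ran from 3843 to 4767 CPM in myeloma and from 6711 to 14730 CPM in control libraries, macrophage sums (8 genes) from 50.1 to 356 CPM and from 29.4 to 64.2 CPM, and neutrophil sums (7 genes) from 133 to 457 CPM and from 62.4 to 178 CPM. In bulk RNA, more cells of a type and more RNA per cell cannot be told apart. The part these cell types play in the results that follow was not tested.

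The heavy chain RNA of myeloma libraries differed from that of control libraries in class and in variable segment. Ighg2b, the gene of the IgG2b class, and the variable segment Ighv1-82 were higher in all 3 myeloma libraries, and control libraries had 10 or fewer counts of either except for 88 Ighg2b counts in control replicate 1. Ighm, the member with the highest TPM in the control libraries, showed no such difference. Control libraries instead spread few variable counts over many segments. Of 193 members, 88 had any count and 5 had enough to be tested: Ighm, Ighd, Ighg2b, Igha and Ighv1-82. Of these 5, the quasi-likelihood test of edgeR, adjusted by Benjamini-Hochberg, called 3 higher in myeloma (Ighg2b, Ighv1-82 and Igha) and 0 lower. Over all 13235 genes tested it called 838 (6.33%) higher and 621 (4.69%) lower. Scaled by library sizes alone, the same test gave 633 higher and 1004 lower. Ighv1-82 reached 10 counts in myeloma libraries only. Control replicates 1, 3 and 5 had 88, 3 and 10 Ighg2b counts and 28, 1 and 231 Igha counts. All 3 members called higher thus passed the filter only with the myeloma libraries, where they are high. The adjusted p-values of members and the counts of members called are therefore a description of these 5 genes. The other 188 members were too sparse for this test and are given by their counts.

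Ighm encodes the mu chain of IgM. It stood at 1098, 1106 and 1253 CPM in myeloma replicates 3, 4 and 5, against 1088, 1105 and 995.5 CPM in control replicates 1, 3 and 5. The groups overlapped, and the log2 fold change of 0.12 (SE 0.10) did not pass edgeR's quasi-likelihood test (adjusted p = 0.476). On the deposited TPM scale, which divides by length, the order was the other way, with 1033, 996.3 and 1074 TPM in the myeloma libraries, all below the 1194, 1102 and 1107 TPM of the control libraries. The direction of Ighm therefore depended on the scale.

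Ighm RNA ending in the secreted tail and Ighm RNA ending in the membrane exons are annotated with different lengths, and the deposited length is their abundance-weighted mean. From it and the lengths in GENCODE M21, the membrane form made up 71.6%, 76.1% and 62.5% of Ighm transcripts in myeloma replicates 3, 4 and 5, against 66.3%, 70.3% and 71.9% in control replicates 1, 3 and 5. The means were 70.1% ± 6.94 in myeloma and 69.5% ± 2.92 in control libraries (SD, n = 3 each), and a two-sided exact permutation test gave p = 0.9. Most Ighm RNA was thus assigned to the membrane form in each of the 6 libraries. For Igha the same calculation gave 1.29%, 1.21% and 7.61% membrane form in the myeloma libraries, against 6.82% and 1.59% in control replicates 1 and 5. Control replicate 3 had 1 Igha count. Ighd was assigned wholly to the membrane form in 5 libraries and to 97.6% in control replicate 5. For Ighg2b and Ighg2c the transcript versions of the deposited tables were not all found in the annotation used here, so no share was computed. The deposited length of Ighg2b was 1116 bases in each myeloma library, against 1156, 1512 and 1114 bases in control replicates 1, 3 and 5, which had 88, 3 and 10 Ighg2b counts.

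Ighd encodes the delta chain carried with IgM on mature naive B cells. It stood at 17.1, 14.9 and 16.3 CPM in the myeloma libraries, against 17.3, 36.8 and 56.4 CPM in control replicates 1, 3 and 5. All 3 myeloma values lay below the control values, control replicate 1 by a small margin. Among genes tested, 16.0% had all myeloma values below all control values and 17.2% had them all above. The log2 fold change of -1.20 (SE 0.35) missed the threshold in edgeR's quasi-likelihood test (adjusted p = 0.0586). Apart from the fit with no filter, it passed in 4 of 14 alternatives. These were DESeq2 (adjusted p = 0.00216) and, in edgeR, library sizes alone (0.0411), the replicate block (0.0228) and the fit without control replicate 1 (0.0035). That fit was 1 of 6 that left out a library. It did not pass in limma-voom (adjusted p = 0.153) or with edgeR's robust dispersion (0.138). Without control replicate 5 the log2 fold change was -0.76. Control replicate 1 also had the lowest summed B cell markers of the control libraries.

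Ighg2b was measured at 62.8, 717.6 and 1632 CPM in myeloma replicates 3, 4 and 5, against 6.87, 0.258 and 0.726 CPM in control replicates 1, 3 and 5. The groups did not overlap, and the myeloma libraries differed widely among themselves. The log2 fold change was 8.25 (SE 1.32), with an adjusted p of 0.00708 in edgeR's quasi-likelihood test. Leaving out each library in turn kept the call, with log2 fold changes between 7.19 (without myeloma replicate 5) and 10.58 (without control replicate 1). The call was lost in limma-voom (adjusted p = 0.281) and with edgeR's robust dispersion (adjusted p = 0.0727). Per length, Ighg2b reached 92.7, 1024 and 2182 TPM in the myeloma libraries. It was thus below Ighm in replicate 3, close to it in replicate 4 and above it in replicate 5.

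Ighg2c encodes the IgG2c class, which takes the place of IgG2a in some strains, C57BL/6 among them. It had 804, 214 and 1 expected counts in myeloma replicates 3, 4 and 5, which is 68.0, 21.3 and 0.089 CPM, and 0 in each control library. Myeloma replicate 5 was thus below the floor of 3 counts, while replicate 3 held slightly more Ighg2c than Ighg2b per length, at 101 and 92.7 TPM. Taking the control libraries at 3 counts each, the myeloma mean was at least 126-fold higher. Without myeloma replicate 3, which holds most of the signal, this bound was 45.2-fold. Ighg2c did not pass the filter and was not tested.

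Ighg2b and Ighg2c are close relatives, 85.6% identical over their coding sequence. Of 1062 windows of 50 bases in the whole Ighg2c transcript, 56 also occur in the Ighg2b transcript. The hinge exon, which joins the antigen-binding arms to the stem of the antibody, is shown because it differs in sequence and length between the classes. Sequences are from GENCODE release M21 transcripts on GRCm38, minus strand, at chr12:113307261-113307326 for Ighg2b and chr12:113288263-113288325 for Ighg2c. Capitals mark bases that do not match the other gene in the alignment.
Ighg2b: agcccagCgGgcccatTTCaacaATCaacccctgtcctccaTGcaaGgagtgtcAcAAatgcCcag
Ighg2c: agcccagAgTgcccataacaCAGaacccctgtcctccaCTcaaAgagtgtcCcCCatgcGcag
The hinge exons were 77.3% identical. Reads falling in shared stretches are divided between these genes by a model, so small values of either beside a large value of the other are uncertain.

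Igha, the gene of the IgA class secreted at mucosal surfaces, ran in another order across the myeloma libraries. It stood at 101.8, 81.5 and 37.6 CPM in myeloma replicates 3, 4 and 5, against 2.19, 0.086 and 16.8 CPM in control replicates 1, 3 and 5. The groups did not overlap, and the library with the most Ighg2b had the least Igha of the myeloma group. The log2 fold change was 3.49 (SE 0.85), with an adjusted p of 0.0335 in edgeR's quasi-likelihood test. This call was lost in DESeq2 (adjusted p = 0.0997), in limma-voom (0.0525) and with robust dispersion (0.163). Leaving out myeloma replicate 3 (adjusted p = 0.1 in edgeR) or replicate 4 (0.106) also lost it, as did leaving out control replicate 1 (0.0794) or replicate 3 (0.064). Without control replicate 5 the log2 fold change was 5.95.

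The remaining constant genes were at or near the floor. Ighg3 had 3, 7 and 6 counts in the myeloma libraries and 0, 0 and 3 counts in control replicates 1, 3 and 5. Ighg1 had 5 counts in myeloma replicate 4 and 0 in the other 5 libraries. Ighe had 0 counts in each of the 6 libraries. Of the IgG genes, Ighg2b and Ighg2c thus carried nearly all counts in the myeloma libraries.

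**Figure D1:**
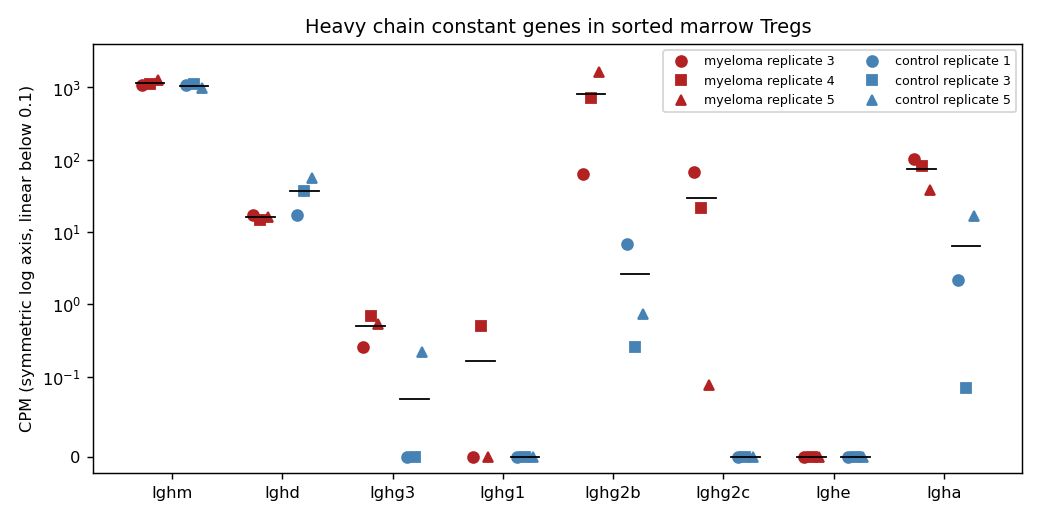
Level of each heavy chain constant gene in CPM, on a symmetric log axis that is linear below 0.1, with myeloma libraries in red left of control libraries in blue and a black bar at each group mean. Ighm overlaps between the groups, whereas Ighg2b and Igha are higher in all 3 myeloma libraries and Ighg2c is at 0 in all 3 control libraries.

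Class-switched genes (Ighg1, Ighg2b, Ighg2c, Ighg3, Igha and Ighe) held 17.3% of constant gene counts in myeloma replicate 3 (95% exact Clopper-Pearson interval 16.7 to 17.9), 42.3% in replicate 4 (41.6 to 43.0) and 56.8% in replicate 5 (56.3 to 57.3). They held 0.812% in control replicate 1 (0.671 to 0.973), 0.030% in control replicate 3 (0.0082 to 0.077) and 1.66% in control replicate 5 (1.46 to 1.88). These and later intervals cover counting error only. The groups did not overlap, with means of 38.8% ± 20.0 in myeloma and 0.833% ± 0.813 in control libraries (SD, n = 3 each), a difference of 37.97 percentage points. A two-sided exact permutation test gave p = 0.1, the smallest that 3 against 3 can give. The sum of the 8 constant genes was 1348, 1942 and 2939 CPM in the myeloma libraries, against 1115, 1143 and 1070 CPM in the control libraries, 1.78-fold higher by geometric means (exact permutation p = 0.1). Since Ighm overlapped between groups on this scale, most of the added CPM lay in the switched genes, which summed to 233.0, 821.5 and 1670.0 CPM in myeloma and to 9.05, 0.344 and 17.7 CPM in control libraries.

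Variable segments received far fewer counts than constant genes. They had 361, 810 and 1895 expected counts in myeloma replicates 3, 4 and 5, against 48, 148 and 291 in control replicates 1, 3 and 5. Of the 185 segments, 113 are annotated as functional variable genes, 70 as pseudogenes and 2 as segments on the opposite strand of the locus. Some count was found for 81 segments and none for 104. Of those 81, 30 had counts in both groups, 50 in control libraries only and 1, Ighv1-61 with 7 counts in myeloma replicate 5, in a myeloma library only. Ighv1-61 is named for this count. Most segments were sparse, since 62 of the 81 had under 10 counts over the 6 libraries together.

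The germline sequences of the leading segments are shown to let them be told apart. Ighv1-82, Ighv7-3 and Ighv1-81 held the most counts in the myeloma libraries, and Ighv1-64 held the most in control replicates 3 and 5. The stretches are bases 58 to 351 of the coding sequence (58 to 357 for Ighv7-3), which leave out the leader peptide, from GENCODE M21 transcripts on GRCm38, minus strand. Capitals mark bases that do not match Ighv1-82 in the alignment. The whole coding sequences lie at chr12:115952538-115952970 for Ighv1-82, chr12:115920279-115920712 for Ighv1-81, chr12:114153180-114153644 for Ighv7-3 and chr12:115507545-115507977 for Ighv1-64.
Ighv1-82: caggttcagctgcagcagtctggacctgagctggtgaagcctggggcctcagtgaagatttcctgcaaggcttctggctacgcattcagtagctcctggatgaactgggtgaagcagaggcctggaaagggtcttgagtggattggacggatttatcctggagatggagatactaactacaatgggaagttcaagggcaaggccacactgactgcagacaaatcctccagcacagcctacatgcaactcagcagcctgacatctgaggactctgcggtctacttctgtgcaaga
Ighv1-81: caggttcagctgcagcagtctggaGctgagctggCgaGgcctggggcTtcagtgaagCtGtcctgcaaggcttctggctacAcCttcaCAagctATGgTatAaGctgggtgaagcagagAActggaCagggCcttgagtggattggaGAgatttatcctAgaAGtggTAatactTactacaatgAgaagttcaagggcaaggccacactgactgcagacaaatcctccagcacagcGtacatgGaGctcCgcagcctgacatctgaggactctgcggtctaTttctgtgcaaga
Ighv7-3: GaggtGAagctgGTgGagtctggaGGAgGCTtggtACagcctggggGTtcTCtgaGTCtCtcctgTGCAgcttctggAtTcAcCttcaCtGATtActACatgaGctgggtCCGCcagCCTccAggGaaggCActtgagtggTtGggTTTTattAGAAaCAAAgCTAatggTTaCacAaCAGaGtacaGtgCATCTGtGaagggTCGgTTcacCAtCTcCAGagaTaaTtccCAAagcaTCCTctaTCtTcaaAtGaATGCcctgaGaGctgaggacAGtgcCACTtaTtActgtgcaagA
Ighv1-64: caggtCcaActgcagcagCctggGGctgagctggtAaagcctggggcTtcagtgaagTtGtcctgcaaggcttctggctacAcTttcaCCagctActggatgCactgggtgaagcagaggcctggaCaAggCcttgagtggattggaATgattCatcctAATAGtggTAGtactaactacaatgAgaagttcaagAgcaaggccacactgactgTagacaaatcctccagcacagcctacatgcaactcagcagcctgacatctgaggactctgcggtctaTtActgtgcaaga
Ighv1-81 is 88.0% identical to Ighv1-82, with 42 bases that do not match, and Ighv1-64 is 85.2% identical, with 52. Ighv7-3 is of another family and is 57.1% identical. The segment closest to Ighv1-82 among 115 compared was Ighv1-80, at 95.4%. Of 50-base windows in the Ighv1-82 transcript, 85.2% occurred in no other variable segment, against 66.6% for Ighv1-64. Values of Ighv1-64, whose closest relative is Ighv1-72, are therefore the less certain of the pair.

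Ighv1-82 was the only variable segment with enough counts to be tested. It had 65, 673 and 1777 expected counts in myeloma replicates 3, 4 and 5, against 5, 2 and 9 in control replicates 1, 3 and 5. In CPM these were 5.50, 66.8 and 158.7 in the myeloma libraries, against 0.390, 0.172 and 0.653 in the control libraries. It was the only segment with a count in all 3 myeloma libraries and the only one whose myeloma values all lay above the control values. Among genes tested, 17.2% had all myeloma values above all control values. The log2 fold change was 7.49 (SE 1.29), with an adjusted p of 0.00952 in edgeR's quasi-likelihood test. The call was lost in limma-voom (adjusted p = 0.454), with robust dispersion (0.0823) and without control replicate 3 (0.0503 in edgeR). Without myeloma replicate 5 the log2 fold change was 6.39.

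The share of variable counts held by Ighv1-82 was 18.0%, 83.1% and 93.8% in the myeloma libraries, against 10.4%, 1.35% and 3.09% in the control libraries. The share in myeloma replicate 3 (95% exact Clopper-Pearson interval 14.2 to 22.4) was not distinguishable at this depth from that in control replicate 1 (3.47 to 22.7), which had 48 variable counts. In myeloma replicate 3 it ranked 3 by counts, behind Ighv7-3 with 180 counts (49.9%) and Ighv1-81 with 99 counts (27.4%). The same pair followed Ighv1-82 in myeloma replicate 4, with 48 counts (5.93%) and 33 counts (4.07%). Neither had a count in myeloma replicate 5, where the floor of 3 counts among 1895 equals a share of 0.158%. The upper end of the 95% exact interval for 0 of 1895 counts is 0.194%. In control replicates 1, 3 and 5, Ighv7-3 had 0, 4 and 1 counts and Ighv1-81 had 0, 5 and 2 counts.

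Other segments had high counts in a single myeloma library, but not high shares beside the control libraries. Ighv5-16 had 63 counts in myeloma replicate 5, 3.32% of that library's variable counts, and Ighv5-6 had 30 counts in myeloma replicate 4, 3.70% of its variable counts. In control replicates 1, 3 and 5, Ighv5-16 had 0, 5 and 2 counts (0%, 3.38% and 0.687%). Ighv5-6 had 2 counts in each of these control libraries (4.17%, 1.35% and 0.687%). Once Ighv1-82, Ighv7-3 and Ighv1-81 were set aside, the remaining segments summed to 1.44, 5.56 and 10.5 CPM in the myeloma libraries, against 3.36, 11.8 and 20.3 CPM in the control libraries. The groups overlapped in this remainder. These 3 segments were set aside with their values known.

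In the control libraries no segment stood out in the same way. Ighv1-64 had 19 and 51.9 counts in control replicates 3 and 5, which is 12.8% and 17.8% of their variable counts, and 0 in control replicate 1. It had 0, 3 and 2 counts in the myeloma libraries. In control replicate 1 the largest share was 12.5%, held equally by Ighv6-3 and Ighv1-66 with 6 counts each. Only 4 of 185 segments, Ighv1-9, Ighv1-47, Ighv1-55 and Ighv1-72, had all 3 myeloma values below all control values, against 16.0% of genes tested. Ighv1-72, for example, had 0 counts in each myeloma library and 5, 4 and 9 counts in the control libraries. None of these 4 had enough counts to be tested.

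**Figure D2:**
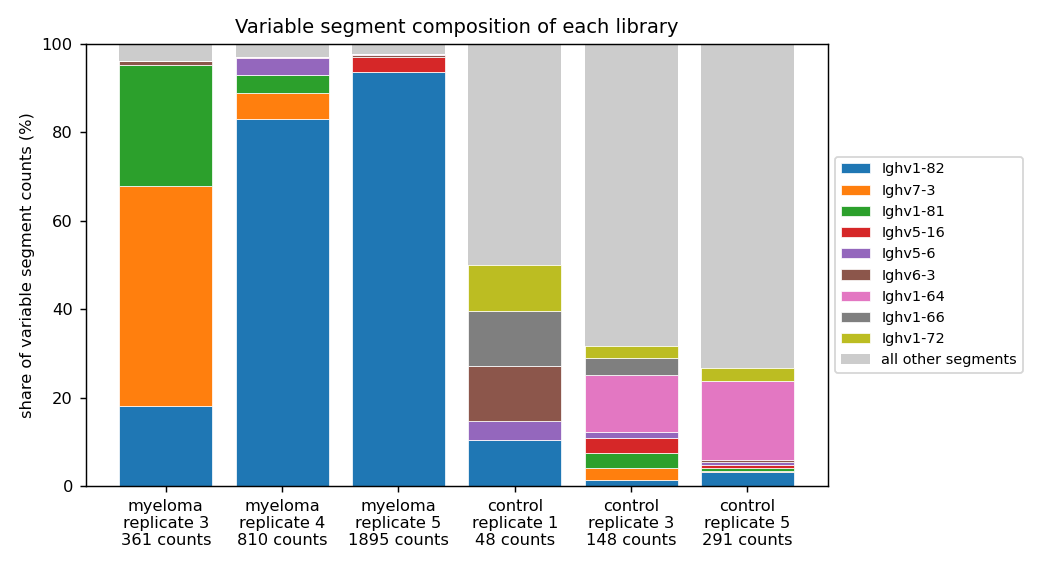
Share of each library's variable segment counts held by the named segments, in percent, with the total variable count under each bar, myeloma libraries left of control libraries. Ighv1-82 fills 83.1% and 93.8% of the bars of myeloma replicates 4 and 5, Ighv7-3 and Ighv1-81 lead in myeloma replicate 3, and the control bars are mostly made of other segments.

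The largest share held by any segment was 49.9% in myeloma replicate 3 (95% exact Clopper-Pearson interval 44.6 to 55.1), 83.1% in replicate 4 (80.3 to 85.6) and 93.8% in replicate 5 (92.6 to 94.8). It was 12.5% in control replicate 1 (4.73 to 25.2), 12.8% in control replicate 3 (7.91 to 19.3) and 17.8% in control replicate 5 (13.6 to 22.8). The intervals of the groups did not overlap. The means were 75.6% ± 22.9 in myeloma and 14.4% ± 2.99 in control libraries (SD, n = 3 each), and a two-sided exact permutation test gave its smallest possible p of 0.1. The 3 leading segments of each library together held 95.3%, 93.1% and 97.5% of variable counts in the myeloma libraries, against 35.4%, 25.7% and 29.3% in the control libraries.

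The effective number of segments, 1 divided by the sum of squared shares, measures how evenly counts are spread. It was 2.80, 1.43 and 1.14 in the myeloma libraries, against 12.7, 23.6 and 19.9 in the control libraries (means 1.79 ± 0.89 and 18.7 ± 5.58, SD, n = 3 each, exact permutation p = 0.1). A count was found for 9, 14 and 18 segments in myeloma replicates 3, 4 and 5, against 17, 45 and 67 in control replicates 1, 3 and 5. Myeloma replicate 5 and control replicate 1 were thus close, although they had 1895 and 48 variable counts. Because deeper libraries show more segments, each was also reduced by calculation to 48 variable counts, the depth of control replicate 1. At that depth 4.98, 5.06 and 3.13 segments would be seen in the myeloma libraries, against 17.0, 27.6 and 28.5 in the control libraries. This comparison at equal depth was added after the data were seen.

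**Figure D3:**
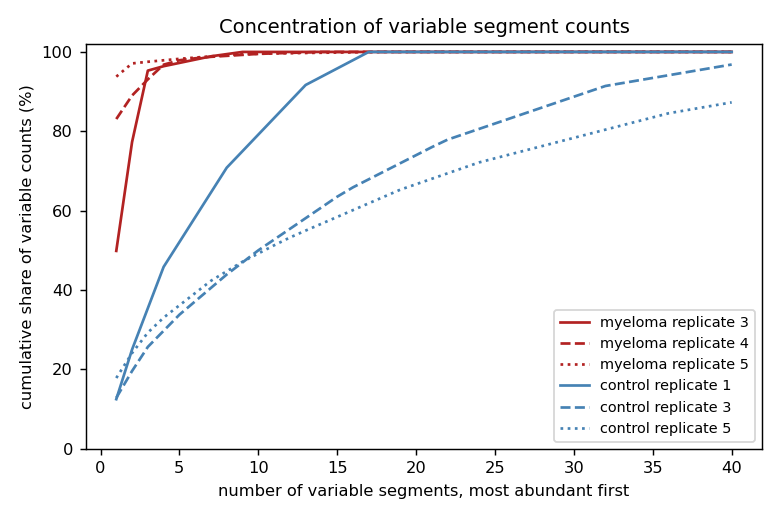
Cumulative share of variable segment counts in percent against the number of segments, most abundant first, with myeloma libraries in red and control libraries in blue. The first 3 segments hold 93.1% to 97.5% of counts in the myeloma libraries and 25.7% to 35.4% in the control libraries.

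The summed level of all variable segments was 30.6, 80.4 and 169.2 CPM in the myeloma libraries, against 3.75, 12.7 and 21.1 CPM in the control libraries. The groups did not overlap, with means of 93.4 ± 70.2 CPM in myeloma and 12.5 ± 8.69 CPM in control libraries (SD, n = 3 each). The geometric means differed 7.45-fold, with an exact permutation p of 0.1. Leaving out 1 library moved this fold between 4.55 (without control replicate 1) and 11.6 (without myeloma replicate 3). Without myeloma replicate 5 it was 4.95. When the leading segment of each library was left out, the sums were 15.3, 13.6 and 10.5 CPM in the myeloma libraries and 3.28, 11.1 and 17.4 CPM in the control libraries, which overlap. Since that segment was picked by its counts, leaving it out removes more from the myeloma libraries by construction. Control libraries with more variable counts also had more B cell marker CPM, in the order of replicates 1, 3 and 5.

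Segments are grouped into families by sequence, and family 1, with 93 of the 185 segments, is the largest and lies far from the constant genes. It held 48.8%, 89.4% and 95.4% of variable counts in the myeloma libraries, against 77.1%, 62.2% and 66.0% in the control libraries. The groups overlapped, with myeloma replicate 3 lowest, where Ighv7-3 alone gave family 7 a share of 49.9%. Family 5, which lies nearer the constant genes, held 0%, 3.70% and 3.32% in the myeloma libraries, against 4.17%, 11.5% and 7.22% in the control libraries. Segments annotated as pseudogenes received 0, 0 and 7 counts in the myeloma libraries and 0, 2 and 4 in the control libraries. Ighv1-82 is the 181st segment counted from the constant end, and 4 segments lie further out.

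**Figure D4:**
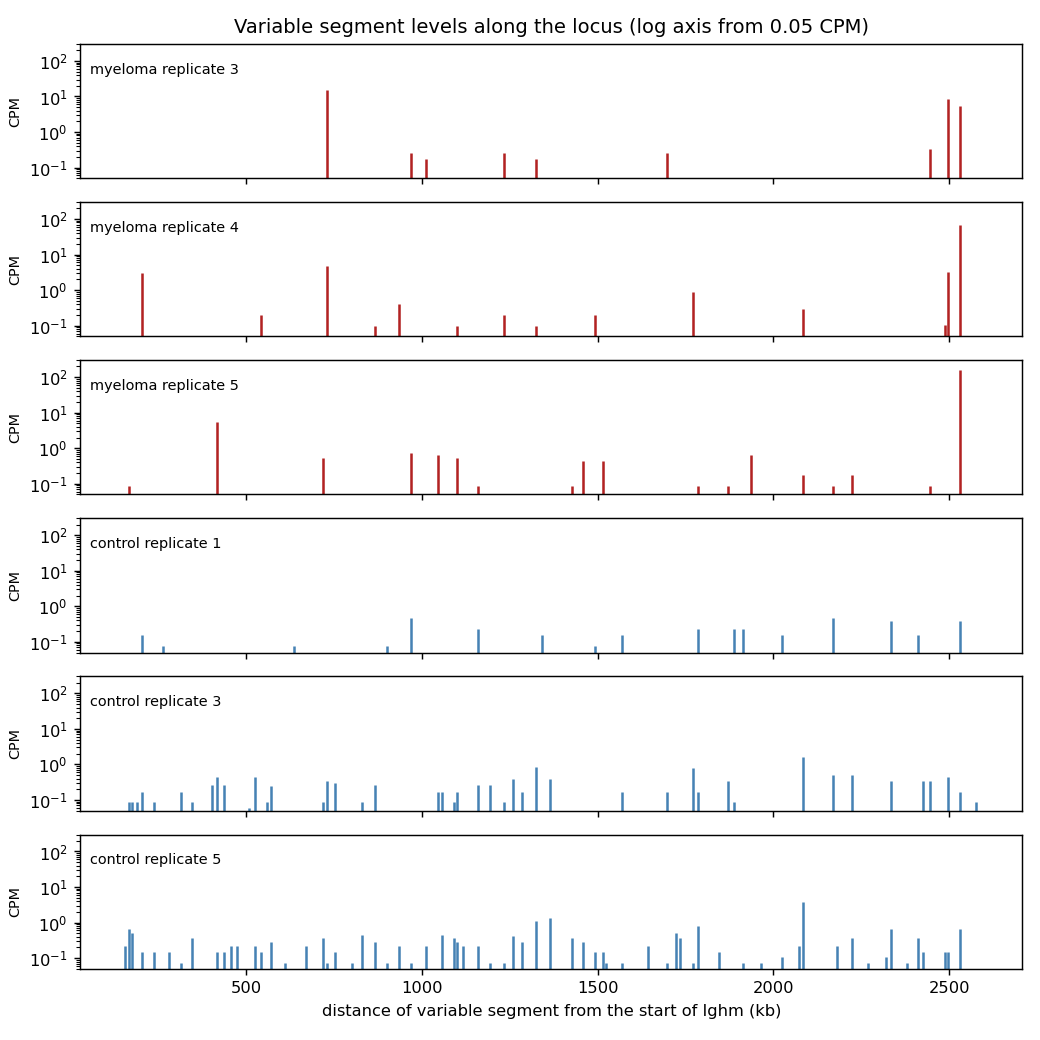
Level of each variable segment in CPM (log axis from 0.05) against its distance in kb from the start of Ighm, with 1 panel per library and myeloma libraries above control libraries. The myeloma panels show a few tall lines, Ighv1-82 near the far end among them, and the control panels show many short lines spread over the locus.

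A heavy chain transcript carries a variable segment and a constant gene together, so pairs that rise and fall together were looked for across the myeloma libraries. These pairs were chosen with their values known. Ighv1-82 had 8.76 counts per 100 Ighg2b counts in myeloma replicate 3 (95% interval 6.69 to 11.3), 9.31 in replicate 4 (8.59 to 10.1) and 9.72 in replicate 5 (9.26 to 10.2). The intervals overlap, although Ighg2b itself ran from 62.8 to 1632 CPM over the same libraries. Control replicate 1, the control library with the most Ighg2b, had 5 Ighv1-82 counts beside 88 Ighg2b counts, a ratio of 5.68 per 100 (1.80 to 13.8). In the other control libraries both counts were 10 or fewer.

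Ighv7-3 paired in the same way with Ighg2c. It had 22.4 counts per 100 Ighg2c counts in myeloma replicate 3 (95% interval 18.9 to 26.3) and 22.4 in myeloma replicate 4 (16.0 to 30.8). Myeloma replicate 5, with 1 Ighg2c count, had 0 Ighv7-3 counts. Ighv1-81 had 12.3 counts per 100 Ighg2c counts in myeloma replicate 3 (9.89 to 15.2) and 15.4 in replicate 4 (10.3 to 22.3). Gene tables do not show which variable and constant parts lie on the same molecule, so these ratios describe levels only. Per length, all variable segments together reached 17.8, 27.0 and 35.5 TPM per 100 TPM of constant genes in the myeloma libraries, against 2.74, 9.72 and 17.2 in the control libraries.

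**Figure D5:**
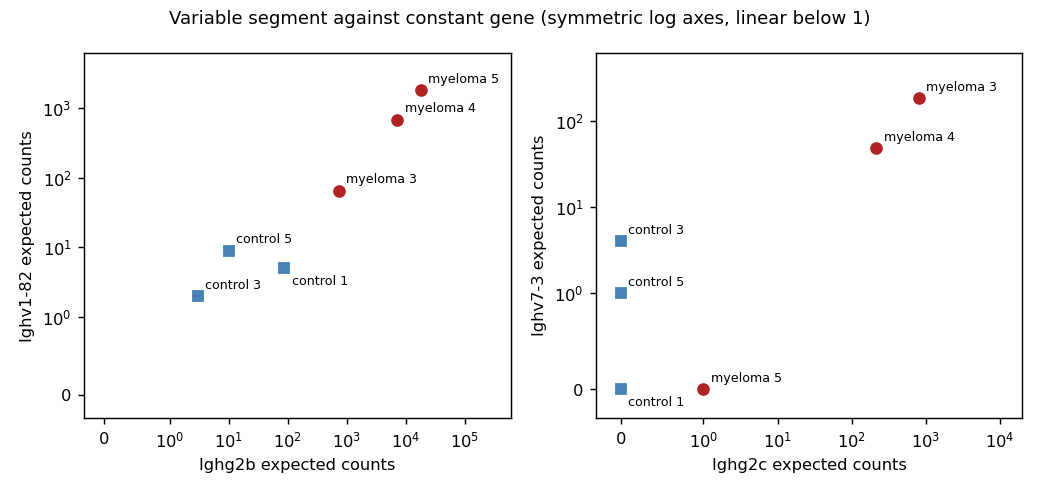
Expected counts of Ighv1-82 against Ighg2b and of Ighv7-3 against Ighg2c in each library, on symmetric log axes that are linear below 1, with myeloma libraries as red circles and control libraries as blue squares. The 3 myeloma libraries lie along a line of 8.76 to 9.72 Ighv1-82 counts per 100 Ighg2b counts, and myeloma replicates 3 and 4 both lie at 22.4 Ighv7-3 counts per 100 Ighg2c counts.

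Myeloma libraries were also compared by which segments they shared. The overlap of segment shares, the sum over segments of the smaller share, was 83.3% between myeloma replicates 4 and 5, 28.4% between replicates 3 and 4 and 18.5% between replicates 3 and 5. Among the control libraries it was 50.2% between replicates 3 and 5, 14.9% between replicates 1 and 3 and 16.0% between replicates 1 and 5. Control replicate 1 rests on 48 variable counts. Myeloma replicates 4 and 5 shared Ighv1-82 as their leading segment, while Ighv7-3 and Ighv1-81 led in replicate 3.

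Kappa light chain counts were also concentrated. Igkc, the kappa constant gene, stood at 96.0, 408 and 919 CPM in the myeloma libraries, against 29.7, 49.7 and 61.7 CPM in the control libraries, a log2 fold change of 3.33 (adjusted p = 0.0175 in edgeR's quasi-likelihood test). Over the fits that left out 1 library, this call held in 2 of 6, without myeloma replicate 3 and without myeloma replicate 5. The kappa variable segment Igkv1-110 held 64.4%, 93.2% and 92.9% of kappa variable counts in the myeloma libraries, against 12.7%, 4.56% and 2.33% in the control libraries. Igkv1-117, its close relative, held 31.2%, 2.68% and 0.150% in the myeloma libraries, against 3.83%, 7.24% and 4.12% in the control libraries.

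Genes that make and process heavy chains were taken from 4 lists, given by counts beside the median log2 fold change of 0.02 over all genes tested. Of 20 genes of antibody secretion and the plasma cell programme, 19 were tested, 3 rose, 0 fell and 16 did not pass, with a median log2 fold change of 0.51. Jchain, which joins IgM and IgA units into polymers, stood at 37.7, 118.5 and 199.3 CPM in the myeloma libraries, against 3.67, 0.601 and 3.70 CPM in the control libraries (log2 fold change 5.44, adjusted p = 0.00239 in edgeR). Fkbp11, a chaperone of secretory cells, rose by 2.94 on the log2 scale (adjusted p = 0.0155 in edgeR). It stood at 1.44, 2.68 and 2.77 CPM in the myeloma libraries, against 0.234, 0.344 and 0.290 CPM in the control libraries, at or near the floor. Sdc1, which encodes the plasma cell surface protein CD138, stood at 1.10, 9.23 and 25.2 CPM in the myeloma libraries, against 1.25, 0.601 and 1.45 CPM in the control libraries (log2 fold change 3.40, adjusted p = 0.0456 in edgeR). Myeloma replicate 3 lay within the control range for Sdc1. Jchain, Fkbp11 and Sdc1 passed the filter only with the myeloma libraries. Their adjusted p-values and the count of 3 that rose are therefore a description of these genes. Leaving out 1 library left between 1 and 5 of the 19 called higher, with 5 without myeloma replicate 3 and 1 when myeloma replicate 4 or either of control replicates 3 and 5 was left out. Jchain kept its call in all 6 of these fits, Fkbp11 in 2 and Sdc1 in 1, without myeloma replicate 3. Limma-voom left Jchain uncalled (adjusted p = 0.0797). Tnfrsf17, the plasma cell receptor BCMA, had 0.423, 0.695 and 0.714 CPM in the myeloma libraries and 0 in each control library and was too sparse to be tested.

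Of 14 genes of V(D)J recombination and the surrogate light chain, 11 were tested and 0 passed in either direction, with 1 lower when control replicate 1 was left out. Of 13 genes of class switching and somatic hypermutation, 12 were tested, 0 rose and 3 fell, with a median log2 fold change of 0.09. Among them were Trp53bp1 (-0.42, adjusted p = 0.0144) and Rif1 (-0.36, adjusted p = 0.022), which act in DNA break repair in many cell types. Of 11 genes of heavy chain transcription and secreted-form processing, all were tested, 0 rose and 2 fell, Ikzf1 (-0.48, adjusted p = 0.0285) and Pou2f1 (-0.33, adjusted p = 0.0444). Both encode transcription factors that T cells also express. In either list 0 were called lower without myeloma replicate 4 or without control replicate 3, and 4 class switching genes were without control replicate 1. B cell markers moved the other way from Ighg2b, with 0 of 14 higher, 6 of 14 lower and a median log2 fold change of -2.38. Among all genes tested, 4.69% were called lower. Without control replicate 1, 13 of these 14 markers were called lower, without myeloma replicate 5, 8, and in each of the other 4 fits that left out a library, 1. Of the 6, Cr2 and Fcer2a passed the filter only with the control libraries, where they are higher. Cr2 stood at 0.254, 0.099 and 0.089 CPM in the myeloma libraries, and Fcer2a at 0.085, 0.397 and 1.43 CPM.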

How the data were processed

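Total RNA of sorted cells was extracted with the RNeasy Micro kit and made into libraries with the NEBNext Ultra RNA kit, which does not mark strand, per the labels' protocols. Build mm10 and the tools STAR, RSEM, Picard and DESeq2 are named in the submitters' processing notes; versions, settings and read length: not given in the sources used here.

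The deposited tables, 1 per library, hold the authors' RSEM expected counts (estimated reads per gene, not normalized), per the file headers. They also hold TPM, scaled by the authors' RSEM run for length and library total, and transcript lengths, which served for the share of membrane form. The deposited FPKM was not used. Reads that match several genes are split by RSEM's model, so close segments are uncertain, and reads of mutated segments that do not match the germline reference may be missed.

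Expected counts were rounded, filtered with filterByExpr (minimum count 10, total 15), TMM-scaled and fitted by glmQLFit in edgeR 4.0.16 under R 4.3.3. The contrast of myeloma minus control was tested by glmQLFTest, adjusted by Benjamini-Hochberg over 13235 genes, with a threshold of 0.05. Adjusted p-values are from this test unless another is named, and SE is the log2 fold change over the root of its F statistic. CPM uses TMM-scaled totals, and shares use expected counts. The myeloma libraries (replicates 3, 4 and 5) totalled 12008165, 10240620 and 11777901 expected counts, the control libraries (replicates 1, 3 and 5) 12315318, 11688282 and 13314631. Sums, shares and effective numbers were compared by two-sided exact permutation tests (scipy 1.17.1), which cannot go below p = 0.1 with 3 against 3. Nothing in the labels ties a library to its own culture or day beyond the series design's 3 marrows per group, so p-values reflect only how these libraries vary, which may be technical. The edgeR script was tested on simulated data.

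The members and lists were chosen with earlier results of these data known. Named are all constant genes, the 10 variable segments with the highest mean share in myeloma, the 5 highest in control libraries, the leading segment of each library, the 3 called members per direction with the smallest p, and up to 4 genes per list; exceptions are said to be so. Some listed genes are not reported here. Tables matched GENCODE M21 for 47224 identifiers and not for 419. The alternatives were no filter, a filter of 1 CPM in 3 libraries, RLE factors, unscaled library sizes, DESeq2 1.42.0, limma-voom (3.58.1), robust dispersion, library sizes without immunoglobulin genes, TPM, no pseudogenes, Shannon entropy, the leading segment left out, a replicate block, and each library left out in turn.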

Additional observations from a re-analysis of the deposited data

How the results depend on the processing

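Of the members, 3 were called higher in edgeR. With no filter the count was 7, with limma-voom 0 and with robust dispersion 0, and leaving out 1 library gave 1 (without control replicate 3) to 6 (without myeloma replicate 5). Of those 6, Ighg2c, Ighv7-3 and Ighv1-81 entered the test only once the myeloma library where they are near 0 was left out. In edgeR 0 members were called lower, and 1 (Ighd) was lower at an unadjusted p under 0.05; library sizes alone, DESeq2 and the replicate block gave 1 (Ighd), no filter 2, and leaving out 1 library 0 to 2. Over all genes, 838 were higher and 621 lower, against 1337 and 1102 with no filter, 633 and 1004 with library sizes alone, 362 and 142 with the replicate block, and 331 to 836 and 123 to 546 without 1 library. DESeq2 called 964 lower.

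Leaving out 1 library moved the log2 difference of summed constant genes between 0.55 and 1.11, that of summed variable segments between 2.19 and 3.54, the difference in largest share between 52.1 and 74.0 points, in effective number between -19.97 and -14.49, and in class-switched share between 28.96 and 48.72 points. With the leading segment left out, the variable sum differed by 0.60. Replicate numbers 3 and 5 occur in both groups, and the labels do not say whether they mark pairs. The deviations of same-numbered libraries had r = 0.03 and 0.10, the latter the highest value across groups. Libraries with different numbers had r from -0.08 to 0.05. With deviations from means of 3 libraries, these values cannot decide whether the numbers mark pairs. The main fit takes no pairs, and the replicate block is given as an alternative. With the replicate block the 5 values were 0.85, 2.13, 56.5, -19.8 and 36.2, and Igha had an adjusted p of 0.206. The log2 fold change of Dntt (-0.27, not called) was 0.049 with the replicate block, 0.07 and 0.12 without myeloma replicate 3 or 4 and 0.16 without control replicate 5 (range without 1 library -1.59 to 0.16); that of Iglc3 (0.20, not called) was -1.08 with the block, -0.58 without myeloma replicate 4 and -0.31 without control replicate 1 (range -0.58 to 0.59). The cause was not tested. Few variable counts, 48 in control replicate 1, limit what the shares in control libraries can show.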

Other observations

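Outside the members, the 4 heavy chain joining segments and the 20 diversity segments in the tables received 0 counts in each of the 6 libraries. Their annotated lengths are 48 to 54 bases and 10 to 29 bases.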
